A study of Sus scrofa with 40 samples.

Results

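The plasma protein genes ALB, TF, HP, HPX, A2M and ITIH1 were followed through liver and backfat of young pigs. Members were all probe sets of an Affymetrix porcine expression array whose single gene symbol in the platform annotation is one of these 6. That gave 10 probe sets out of 23999 that are not controls, and 6 symbols out of 6765. ALB (gene 396960), HP (397061) and HPX (396998) have 1 probe set each. TF has 2, which the annotation assigns to different gene identifiers, 396996 and 396845, and for the latter RefSeq gives the older name PICA. PICA is a transferrin relative that binds carbonic anhydrase, and in Sscrofa11.1 the 2 genes are neighbours. The second is called TF/PICA here. A2M (403166) has 3 probe sets, called the first, the second and the third A2M set by their brightness in liver, and ITIH1 (396963) has 2, a brighter and a dimmer one. Where only A2M or ITIH1 is written, the value is that of the brightest set.

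The animals were 20 prepubertal Yorkshire gilts aged 6 months, 10 from a line of low residual feed intake (RFI) and 10 from a line of high RFI. RFI is the part of feed intake that body weight and growth do not account for, and a low value marks an efficient pig. Feed was free for 5 pigs of each line (ad libitum), while the other 5 received 80% of maintenance for 8 days (restricted). Liver and fat, the latter the middle layer of backfat over rib 10, were profiled on 1 array per pig and tissue. The 40 arrays thus make 8 groups of 5: fat or liver, low or high RFI, ad libitum or restricted. All groups share a heterozygous genotype for a coding variant of the melanocortin receptor gene MC4R, by which animals were selected; 1 of the 40 labels says only that genotypes were specific. The question was how a short energy shortage alters expression in each tissue, and whether the lines respond alike.

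Hepatocytes secrete most of the protein in blood plasma, and these genes are among the brightest in liver. Albumin (ALB) carries fatty acids, hormones and metals and maintains oncotic pressure, and transferrin (TF) carries iron to cells. Haptoglobin (HP) captures free haemoglobin and hemopexin (HPX) captures free haem, so both limit oxidative damage after red cells break. Alpha-2-macroglobulin (A2M) traps proteases, and ITIH1 encodes a heavy chain that is joined to the light chain bikunin and then to hyaluronan, a matrix polymer. During inflammation cytokines such as interleukin-6 shift the liver's output: haptoglobin is a positive acute phase protein, and albumin and transferrin are negative ones in most mammals.

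The values are linear intensities, with a trimmed mean of 499.8 to 499.9 on each array, and no array duplicated another (highest correlation 0.963). Fat carried its own markers: 10 adipocyte genes had a mean log2 intensity of 11.7 to 12.8 in fat and 5.88 to 6.76 in liver. Skeletal muscle markers varied widely in fat, with a summed intensity over 12 genes from 443 to 108748. One fat array stood apart, low RFI restricted replicate 5. The summed intensity of 13 hepatocyte markers (of 22 listed) was 44779 there, against 402 to 2013 on the other 19 fat arrays and 234058 to 340950 in liver. Next came fat high RFI restricted replicate 3, at 2013. Except for the dimmest probe sets, the members' diet differences and calls in fat are therefore also given without the first of these arrays, and in part without both. As a sign of RNA quality, actin signal was compared between the 3' and the 5' end of the transcript. On the log2 scale the 3' signal was higher by 1.78 to 3.44 in fat for replicate numbers 1 and 2. For numbers 3 to 5 it was higher by 1.32 to 1.82.

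All 10 probe sets were brighter on every liver array than on any fat array, the array with hepatocyte signal included. In liver ALB ranged from 29576 to 51144 with a median of 37418, and in fat from 74.6 to 24616 with a median of 146. HP in liver ranged from 27889 to 50817, and in fat from 5.43 to 18793 with a median of 61.5. The dimmest liver array for either gene thus exceeded the brightest fat array. The other genes lay apart in the same way. TF spanned 25141 to 40528 in liver and 9.29 to 8878 in fat, HPX 23852 to 37004 and 29.8 to 3486, A2M 26153 to 39508 and 112 to 3214. ITIH1 spanned 19487 to 29622 in liver and 9.38 to 1473 in fat, and TF/PICA 10129 to 17043 in liver and 70.7 to 507 in fat.

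In fat 7 of the 10 sets passed the filter on dim signal (brighter than 40% of the same array's probe sets, on 5 or more of the 20 arrays), and all 10 passed it in liver. The 3 that failed in fat were the second and the third A2M set and the dimmer ITIH1 set. All 7 sets tested in both tissues were called higher in liver at an adjusted p under 0.05 (limma over all probe sets, Benjamini-Hochberg), where 27.4% of 14001 probe sets were. Over all of those the median difference, liver minus fat, was -0.25 on the log2 scale. As measured, the liver to fat ratio was 621-fold for HP (log2 9.28, SE 0.555, adjusted p = 4.88e-18, limma) and 295-fold for HPX (8.21, SE 0.268). It was 222-fold for TF (7.80), 154-fold for ALB (7.27), 118-fold for TF/PICA (6.89), 101-fold for A2M (6.66) and 100-fold for ITIH1 (6.65). The sizes and their order are not settled by these values. On most fat arrays HP and HPX lay below the filter level, which was an intensity of 91.5 to 119 there. With a filter at 60% in place of 40%, 3 of the 7 sets were left to test (ALB, A2M and ITIH1), and all 3 were called. Without fat low RFI restricted replicate 5 the HP ratio became 841-fold and that of ALB 199-fold, while A2M and ITIH1 moved only to 112-fold and 107-fold. The HP difference was 11.5 on the log2 scale among replicate numbers 1 and 2. Among numbers 3 to 5 it was 7.77, with low RFI restricted replicate 5 included. The HP signal in fat was 5.43 to 38.5 in the former. In the latter it was 18793 on that array and 34.3 to 415 on the others.

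On fat low RFI restricted replicate 5 the members stood at very different fractions of their liver level. ALB reached 65.5% of the mean of the 20 liver arrays, HP 50.1% and TF 27.6%. HPX reached 11.7%, A2M 10.5%, ITIH1 6.52% and TF/PICA 3.32%. No fat baseline was subtracted in these fractions, and the linearity of the bright liver signals they divide by was not tested. The array was the highest of all fat arrays for the 7 sets tested in fat, but as measured not by 1 common proportion. Of the dim sets, the second A2M set (133) and the dimmer ITIH1 set (198) were also highest there, whereas the third A2M set read 80.3, below the highest of the other 18 arrays at 116. Against the median of the 18 fat arrays other than the named pair it was 417-fold higher for HP, 193-fold for ALB, 71.8-fold for TF and 41.9-fold for HPX. The same ratio was 12.3 for A2M, 7.15 for ITIH1 and 4.30 for TF/PICA. Among the 13 hepatocyte markers the fraction of the liver mean ran from 1.85% to 46.3% with a median of 7.23%. APOC3, an apolipoprotein of triglyceride-rich particles, was at 46.3% and FGB, the fibrinogen beta chain, at 35.1%. CYP7A1, the rate-limiting enzyme of bile acid synthesis, read 41.6 there against a median of 49.8 on the other 18 arrays. Its muscle marker mean (log2 5.13) lay at the low end of the fat range of 4.56 to 12.9, and its adipocyte mean (12.5) lay within that of fat.

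Fat high RFI restricted replicate 3 showed a smaller rise, and in fewer members. There ALB was 2557 against a median of 128 on the other 18, and 6.81% of the liver mean. TF was 1347, or 4.19%. HP, at 415, was 1.11%, and HPX, at 179, was 0.599%. A2M, ITIH1 and TF/PICA were not raised: A2M read 223 against a median of 262, ITIH1 207 against 206, and TF/PICA 145 against 118. So the array was high for the transport and scavenger genes but not for A2M or ITIH1.

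**Figure D1:**
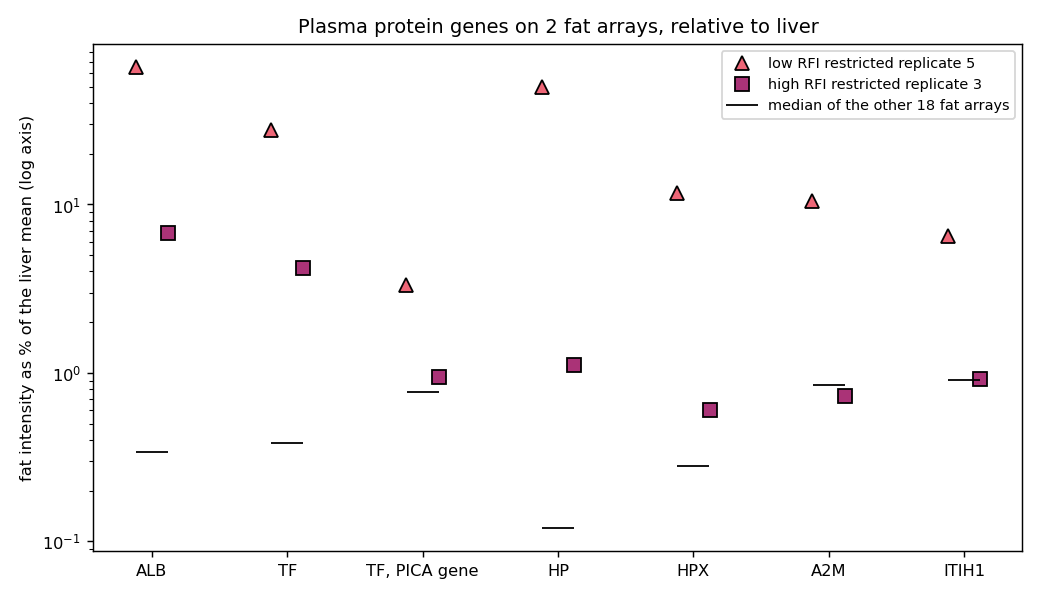
Intensity on the 2 fat arrays with hepatocyte signal as a percentage of the mean of 20 liver arrays (log axis), 1 position per gene, with a dash for the median of the other 18 fat arrays. Low RFI restricted replicate 5 runs from 65.5% for ALB down to 3.32% for TF/PICA, and high RFI restricted replicate 3 from 6.81% for ALB to 0.599% for HPX.

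A2M and ITIH1 were called higher in fat on restricted feed, and no transport or scavenger gene passed the test there. Of the 7 probe sets tested 2 were called higher on restriction and 0 lower, against 15.1% of 15498 probe sets called higher and 10.7% called lower. The same 2 were called higher without low RFI restricted replicate 5, where 13.7% of all probe sets were. The median difference over the 7 was 1.17 with all arrays, 0.60 without that array and 0.26 without high RFI restricted replicate 3 as well. Over all probe sets it was 0.08 in each case. In tissue RNA, fewer cells of a type and less RNA per cell cannot be told apart.

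ALB, the main transport protein, was dim and uneven in fat. Its intensities in the low RFI ad libitum group were 74.6, 112, 158, 348 and 133, and in the low RFI restricted group 89.4, 84.9, 624, 106 and 24616. In the high RFI groups they were 122, 88.7, 167, 372 and 282 ad libitum and 108, 77.3, 2557, 398 and 364 restricted. Apart from the 2 arrays named above, the diets overlapped, and 3 of the low RFI restricted arrays were below the median of 146. The diet difference, restricted minus ad libitum, was 1.17 on the log2 scale (SE 0.826, 95% interval -0.55 to 2.89, adjusted p = 0.318, limma). It was 0.43 without low RFI restricted replicate 5 and 0.05 without both arrays.

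TF, the iron carrier, was highest on the same 2 arrays. The low RFI pigs had 37.1, 94.96, 107, 139.9 and 126 ad libitum and 187, 265, 195, 9.29 and 8878 restricted. The high RFI pigs had 48.5, 87.7, 74.7, 158 and 147 ad libitum and 141, 146, 1347, 121 and 108 restricted. In all, 5 of 10 restricted arrays exceeded the highest ad libitum array, the same 2 among them. Besides the high arrays, low RFI restricted replicate 4 was the lowest of all 20, so the restricted group held both extremes. The difference was 1.25 (SE 0.783, adjusted p = 0.253, limma), 0.60 without low RFI restricted replicate 5 and 0.26 without both high arrays. These values include the lowest array, low RFI restricted replicate 4. With only that array left out instead, the difference was 1.84 and passed the threshold (adjusted p = 0.0375).

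TF/PICA ran from 70.7 to 247 in fat except on 1 array. It read 86.4, 122, 135, 100.3 and 184 in low RFI ad libitum fat and 75.4, 70.7, 116, 111 and 507 in low RFI restricted fat. In the high RFI pigs the ad libitum arrays ranged from 81.7 to 226 and the restricted ones from 76.2 to 247. The groups overlapped, and the difference was 0.06 (SE 0.301, interval -0.57 to 0.69), or -0.19 without low RFI restricted replicate 5.

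HP, the haemoglobin scavenger, had the largest spread of the members in fat. It read 14.6, 5.43, 71.4, 77.6 and 34.3 in low RFI ad libitum pigs and 10.4, 22.5, 131, 125 and 18793 in low RFI restricted pigs. High RFI pigs gave 7.40, 9.09, 51.6, 207 and 135 ad libitum and 14.0, 38.5, 415, 141 and 103 restricted. In each of the 4 groups replicate numbers 1 and 2 were below numbers 3 to 5, and the diets overlapped. The diet difference was 1.73 (SE 1.06, interval -0.48 to 3.94, adjusted p = 0.244, limma) and 0.86 without low RFI restricted replicate 5. The residual SD of HP in fat was 2.68 on the log2 scale (1.89 without that array), against a median of 0.31 over tested probe sets.

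HPX, which binds haem, ran from 29.8 to 179 apart from 1 array. It read 81.1, 116, 75.1, 91.6 and 61.8 in low RFI ad libitum fat and 84.3, 81.6, 129, 87.5 and 3486 in low RFI restricted fat. High RFI arrays read 90.4, 89.6, 119, 69.8 and 90.7 ad libitum and 59.0, 29.8, 179, 66.8 and 82.3 restricted. The diets overlapped, and the lowest array of all was a restricted one. The difference of 0.42 (SE 0.513, adjusted p = 0.584, limma) turned to -0.10 without low RFI restricted replicate 5. The residual SD fell from 1.28 to 0.55 with that array left out, against a median of 0.31 over tested probe sets.

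A2M, the broad protease inhibitor, was called higher on restriction. In low RFI fat it read 339, 255, 119.7, 223 and 112 ad libitum and 224, 355, 764, 407 and 3214 restricted. In high RFI fat it read 154, 437, 128, 207 and 268 ad libitum and 542, 464, 223, 446 and 173 restricted. The diets overlapped: 5 of 10 restricted arrays exceeded the highest ad libitum array, and 4 of 10 ad libitum arrays were below the lowest restricted one. The difference was 1.14 on the log2 scale (SE 0.384, 2.21-fold, interval 0.35 to 1.94, adjusted p = 0.0324, limma). Without low RFI restricted replicate 5 it was 0.84 (SE 0.293, 1.79-fold, adjusted p = 0.0427), and without both arrays 0.92 (adjusted p = 0.0359). The call was near the threshold, since it was lost when any 1 of 8 other single arrays was left out (adjusted p 0.0522 to 0.0608). Those were high RFI ad libitum 1 and 3, high RFI restricted 1, 2 and 4, low RFI ad libitum 3 and 5, and low RFI restricted 3. It was lost too with quantile normalization (1.07, adjusted p = 0.0540) and among replicate numbers 1 and 2 alone (0.44, adjusted p = 0.476).

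The other A2M sets were dim in fat. The second set ranged from 27.5 to 133 in fat and the third from 14.1 to 121, both largely below the filter. With the filter dropped, their diet differences were 0.28 (SE 0.261, adjusted p = 0.543, limma) and -0.09 (SE 0.418, adjusted p = 0.916). Neither was called, and the second had the same sign as the brightest set. Both values include low RFI restricted replicate 5.

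ITIH1, the hyaluronan-binding heavy chain, showed the clearest shift of the members with diet in fat. The low RFI arrays read 195, 120.4, 188, 142 and 266 ad libitum and 247, 355, 723, 488 and 1473 restricted. The high RFI arrays read 165, 111, 217, 122 and 9.38 ad libitum and 170.1, 513, 207, 435 and 389.9 restricted. Of the restricted arrays 7 of 10 exceeded the highest ad libitum array, and 6 of 10 ad libitum arrays were below the lowest restricted one. High RFI ad libitum replicate 5 was the lowest by far. The difference was 1.75 on the log2 scale (SE 0.443, 3.36-fold, interval 0.83 to 2.67, adjusted p = 0.00644, limma). It was 1.57 without low RFI restricted replicate 5 (SE 0.436, 2.96-fold, adjusted p = 0.0137) and 1.64 without both high arrays (adjusted p = 0.0151). Without the lowest array it was 1.35 (SE 0.287, adjusted p = 0.00238). The call held with any single array left out, but not among replicate numbers 1 and 2 alone (1.04, adjusted p = 0.158).

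The dimmer ITIH1 set pointed the same way. It read 33.5, 42.3, 40.9, 46.5 and 43.4 in low RFI ad libitum fat and 81.6, 53.5, 37.9, 49.3 and 198 in low RFI restricted fat. In high RFI fat it read 41.6, 35.7, 27.7, 33.9 and 38.1 ad libitum and 68.7, 67.5, 41.0, 63.9 and 47.1 restricted. Of its restricted arrays 8 of 10 were above the highest ad libitum array. Most of its values lay below the filter, and with the filter dropped the difference was 0.72 (SE 0.248, adjusted p = 0.0523, limma), which just missed the threshold. That value includes low RFI restricted replicate 5, the highest array at 198. Without that array 7 of 9 restricted arrays were above the highest ad libitum one, and the residual SD fell from 0.52 to 0.31. The difference without it was not computed.

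**Figure D2:**
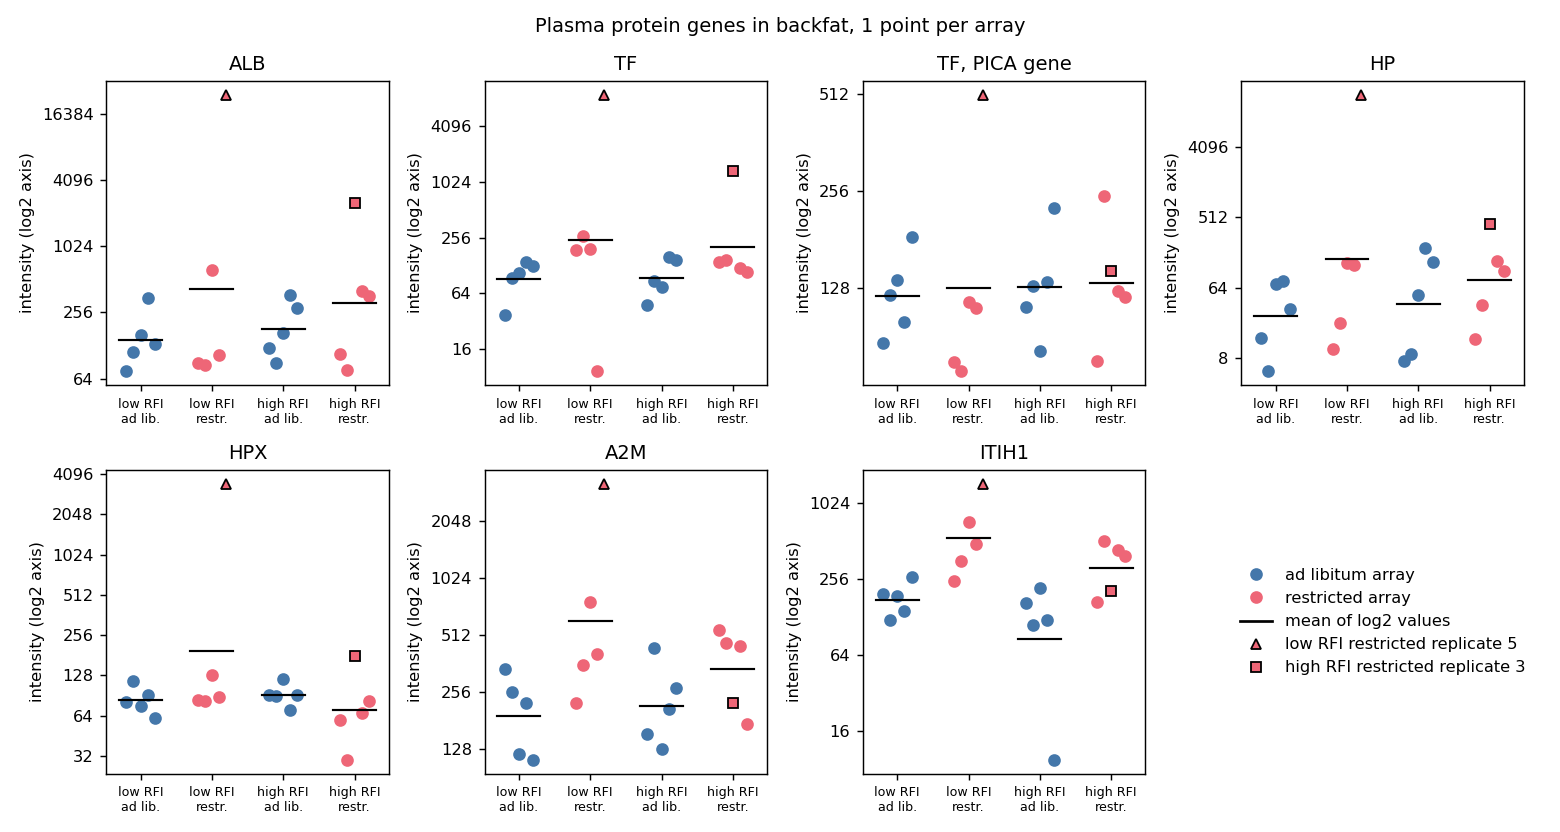
Intensity in fat (log2 axis), 1 point per array for 20 arrays, by line and diet; bars are means of log2 values, and the triangle and square are low RFI restricted replicate 5 and high RFI restricted replicate 3. The triangle is the highest array in every panel, at 24616 for ALB, and in the ITIH1 panel 7 of 10 restricted points lie above all ad libitum points.

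Group levels of the 2 called genes in fat ran in the same order at the top. Mean log2 ITIH1 was 9.07 ± 0.99 in low RFI restricted, 8.30 ± 0.70 in high RFI restricted, 7.46 ± 0.44 in low RFI ad libitum and 6.42 ± 1.82 in high RFI ad libitum fat (SD, n = 5). Only the middle step, between high RFI restricted and low RFI ad libitum, was larger than the SD of either neighbour. Mean log2 A2M was 9.23 ± 1.49 in low RFI restricted, 8.40 ± 0.73 in high RFI restricted, 7.76 ± 0.70 in high RFI ad libitum and 7.58 ± 0.70 in low RFI ad libitum fat (SD, n = 5). No step between neighbours exceeded the larger of their SDs. Other measures differed by diet in fat as well. The log2 ratio of 3' to 5' GAPDH signal averaged 1.88 ± 0.52 on restricted and 1.19 ± 0.37 on ad libitum arrays (SD, n = 10). Hepatocyte markers summed to 404 to 44779 on restricted and 402 to 928 on ad libitum arrays. The skeletal muscle list had 0 of 12 genes called, with a median difference of 0.53 (1.18 without low RFI restricted replicate 5). Of other cell type lists, adipocyte genes had 1 higher and 1 lower of 10 tested, endothelium 2 and 0 of 8, fibroblast 1 and 2 of 6, red blood cell 1 and 1 of 2, and macrophage (6), lymphocyte (5) and hepatocyte (1) genes none. The part of these in the A2M and ITIH1 differences was not tested, beyond the values without the 2 arrays.

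Within each line alone no member passed in fat, whereas 9.2% of probe sets did in low RFI pigs and 9.02% in high RFI pigs. ITIH1 was higher on restriction by 1.62 in low RFI (SE 0.626, adjusted p = 0.106, limma) and by 1.88 in high RFI pigs (adjusted p = 0.0634). A2M was higher by 1.65 in low RFI (SE 0.543, adjusted p = 0.0599, limma) and by 0.64 in high RFI pigs (adjusted p = 0.507). Without low RFI restricted replicate 5 the low RFI values were 1.26 for ITIH1 and 1.05 for A2M. With high RFI ad libitum replicate 5, the lowest ITIH1 array, left out instead, the high RFI value of ITIH1 was 1.08. That is below the low RFI value, which was 1.62 with all arrays and 1.26 without low RFI restricted replicate 5. The A2M difference in low RFI pigs was -0.06 among replicate numbers 1 and 2 and 2.79 among numbers 3 to 5, with low RFI restricted replicate 5 included. The test of the difference between the lines' responses called 0 of 7 members, and 0% of all probe sets, with 244 of 15498 at an unadjusted p under 0.05 and 0 of 7 members among them. Its value, low RFI minus high RFI, was -0.26 for ITIH1 (interval -2.10 to 1.58) and 1.01 for A2M (interval -0.58 to 2.61), each with an adjusted p of 0.9999 (limma). Without low RFI restricted replicate 5 it was -0.62 for ITIH1 and 0.41 for A2M. The intervals allow responses that are alike and responses that differ severalfold.

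No difference between the lines passed the test for any member in fat. Averaged over diets, 0 of 7 were called, beside 0.0194% of all probe sets, and 0 of 7 had an unadjusted p under 0.05. The largest difference, low minus high RFI, was 0.91 for ITIH1 (SE 0.443, interval -0.01 to 1.83, adjusted p = 0.646, limma), with 0.73 when low RFI restricted replicate 5 was left out. Both values include high RFI ad libitum replicate 5, the lowest ITIH1 array at 9.38. HPX differed by 0.67 with all arrays and by 0.15 without that one. The other 5 ranged from -0.07 to 0.33 with all arrays. On each diet alone 0 of 7 passed, where 0.0129% of probe sets did ad libitum and 0% on restriction (747 with an unadjusted p under 0.05). Averaged over diets and without low RFI restricted replicate 5, ALB, TF, TF/PICA and HP differed by -0.70, -0.55, -0.32 and -0.69, all short of the threshold. High RFI restricted replicate 3, which was high for ALB, TF and HP, is included in these values. Over the 7 sets the median line difference was -0.32 without low RFI restricted replicate 5 and -0.22 without both arrays.

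**Figure D3:**
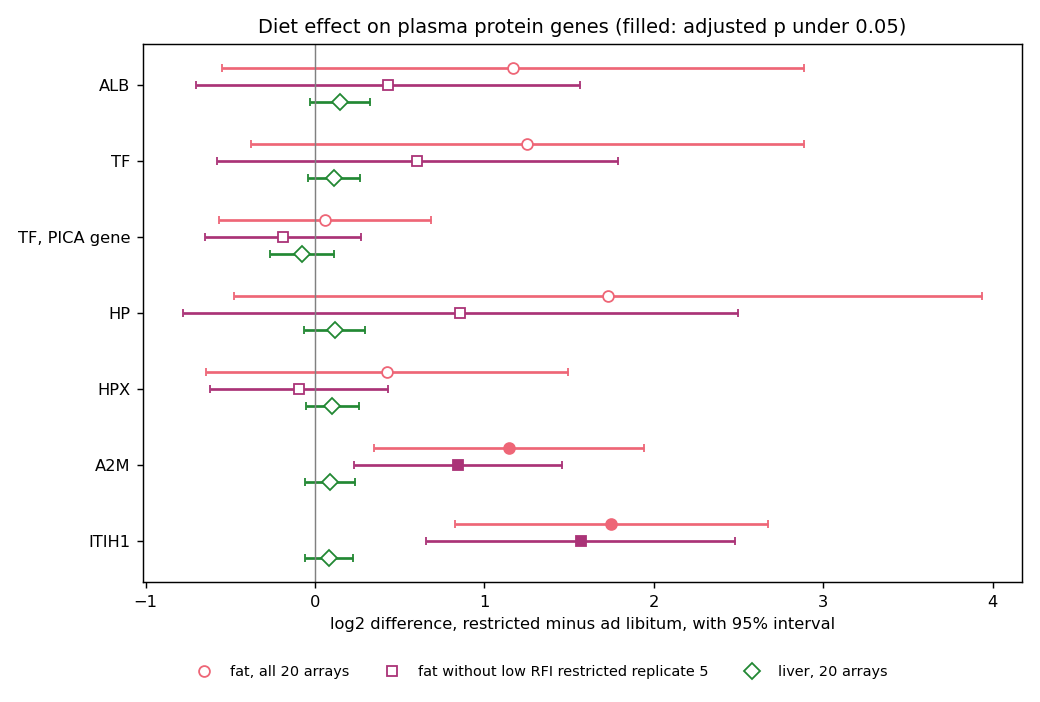
Diet difference on the log2 scale, restricted minus ad libitum, with its 95% interval, for 7 probe sets in fat (20 arrays), in fat without low RFI restricted replicate 5 and in liver (20 arrays); filled symbols have an adjusted p under 0.05. Only A2M and ITIH1 in fat are filled, at 1.14 and 1.75 with all arrays, and all liver values of these sets lie between -0.08 and 0.15.

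In liver the members were bright and steady, and restriction changed none of them past the threshold. Of 10 probe sets 0 were called (limma; 0 at an unadjusted p under 0.05), where 0.919% of 15677 were. The residual SD ran from 0.14 for ITIH1 to 0.21 for TF/PICA among the 7 brightest sets, below the median of 0.34 over tested probe sets. The dimmer sets were less steady, at 1.08 for the dimmer ITIH1 set, 0.72 for the second A2M set and 0.34 for the third. These genes were near the top of the array's range, with ALB between the 99.95th and 100th percentile of its own array, and the brightest spots' linearity was not tested.

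For the transport genes, liver ALB read 39660.2, 37260.2, 33274, 38165 and 34515 in low RFI ad libitum pigs and 33718, 29576, 37923, 51144 and 37023 in low RFI restricted pigs. In high RFI pigs it read 33575, 32741, 30127, 33256 and 42639 ad libitum and 41530.4, 46703, 38364, 37575 and 42482 restricted. The low RFI groups overlapped fully, while 4 of 5 high RFI ad libitum arrays were below every high RFI restricted array. The diet difference was 0.15 (SE 0.0842, interval -0.03 to 0.32, adjusted p = 0.501, limma). TF differed by 0.11 (SE 0.0746, adjusted p = 0.585) and TF/PICA by -0.08 (SE 0.0917, adjusted p = 0.815). TF/PICA had its lowest value, 10129, in low RFI restricted replicate 5, where the other 4 arrays of the group read 15793 to 17043.

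Of the scavengers, liver HP read 41296, 37846, 34423, 39241 and 34767 in low RFI ad libitum and 34562, 31603, 34859, 50817 and 35933 in low RFI restricted pigs. In high RFI pigs it read 34212, 35606, 27889, 32698 and 41015 ad libitum and 41263, 49556, 35581, 37221 and 40026 restricted. As for ALB, low RFI restricted replicate 4 was the highest array of all. The lowest HP value was in high RFI ad libitum replicate 3, and the lowest ALB value, 29576, in low RFI restricted replicate 2. HP differed by 0.12 with diet (SE 0.0864, interval -0.06 to 0.30, adjusted p = 0.641, limma) and HPX by 0.10 (SE 0.0753, interval -0.05 to 0.26, adjusted p = 0.643). HPX ranged from 23852 to 31436 in high RFI ad libitum pigs and from 28978 to 36732 in high RFI restricted pigs.

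A2M and ITIH1, which were called in fat, were not in liver. A2M differed by 0.09 (SE 0.0706, interval -0.06 to 0.24, adjusted p = 0.664, limma) and ITIH1 by 0.08 (SE 0.0681, interval -0.06 to 0.22, adjusted p = 0.684). The remaining sets differed by 0.03 (the second A2M set, interval -0.56 to 0.62), 0.06 (the third A2M set, interval -0.26 to 0.38) and 0.38 (the dimmer ITIH1 set, interval -0.50 to 1.26). High RFI ITIH1 read 21999, 22472, 19487, 21316 and 23639 ad libitum and 23227, 24872, 22748, 24196 and 23960.5 restricted, with only 1 ad libitum array above the lowest restricted ones. In low RFI pigs the ad libitum arrays spanned 21307 to 22764, inside the restricted span of 19618 to 29622. The scale of these liver differences depended on normalization: with quantile normalization ALB was 0.05, and HP (-0.00197), A2M (-0.00799) and ITIH1 (-0.00917) changed sign.

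By line, the liver differences of ALB, TF, HP and HPX lay on the high RFI side. In high RFI pigs the restricted minus ad libitum difference was 0.27 for ALB (interval 0.02 to 0.52, unadjusted p = 0.0353, adjusted p = 0.714, limma), 0.25 for HP, 0.21 for TF and 0.21 for HPX. In low RFI pigs it was 0.03 for ALB, -0.02 for HP, 0.01 for TF and -0.01 for HPX. None of 10 members passed in either line, where 0.134% of probe sets passed in low and 0.0255% in high RFI pigs. The difference between the lines' responses was -0.24 for ALB (interval -0.59 to 0.11), -0.27 for HP (interval -0.62 to 0.09), -0.20 for TF and -0.21 for HPX, each with an adjusted p of 0.999 (limma). It called 0 of 10 members and 0% of all probe sets, with 525 of 15677 at an unadjusted p under 0.05.

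No line difference passed the test in liver either. Low minus high RFI was -0.04 to 0.10 over the 10 sets and none was called, beside 0.0447% of all probe sets. For ALB the interval was -0.20 to 0.15, and for HP -0.17 to 0.18. On each diet alone 0 of 10 passed, where 0% of probe sets did ad libitum (786 at an unadjusted p under 0.05) and 0.0191% on restriction. Group means of log2 ALB were 15.33 ± 0.13 in high RFI restricted, 15.18 ± 0.29 in low RFI restricted, 15.16 ± 0.10 in low RFI ad libitum and 15.06 ± 0.19 in high RFI ad libitum liver (SD, n = 5). No neighbouring pair in this order, nor in that of any other of the 10 sets in liver, was further apart than the larger SD.

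**Figure D4:**
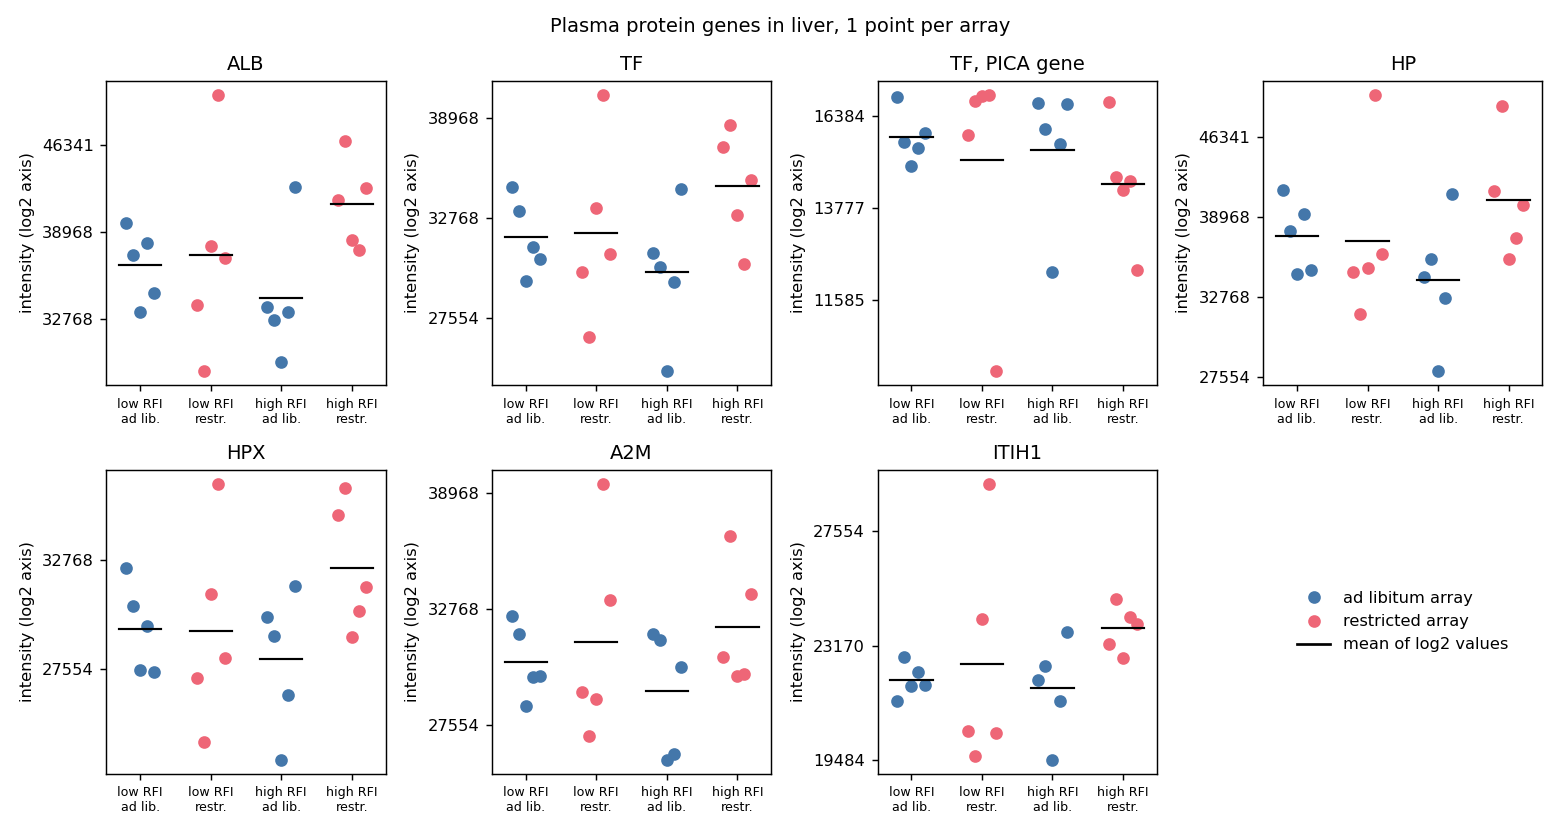
Intensity in liver (log2 axis, with its own range in each panel), 1 point per array for 20 arrays, by line and diet; bars are means of log2 values. ALB lies between 29576 and 51144 over all groups, and low RFI restricted replicate 4 is the highest array for ALB, TF, HP, HPX, A2M and ITIH1.

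The diet response of ITIH1 was larger in fat than in liver. The difference between the tissues' responses was 1.67 on the log2 scale (SE 0.468, interval 0.72 to 2.61, adjusted p = 0.0162, limma), and 1.49 without low RFI restricted replicate 5 (adjusted p = 0.0284). It was the 1 member called of 7, beside 4.53% of 14001 probe sets called higher in fat. For A2M it was 1.06 (SE 0.407, interval 0.23 to 1.88, adjusted p = 0.0914), or 0.75 without that array (adjusted p = 0.116), so a tissue difference was not called. Fat and liver arrays entered as separate samples. Residuals of fat and liver arrays of the same group and number correlated at 0.07 to 0.32 (median 0.23 over 20 pairs), above 0.1 in 19 of 20, and the labels do not say whether such arrays come from 1 pig. ALB, TF, HP, HPX and TF/PICA gave 1.02, 1.14, 1.61, 0.32 and 0.14, with intervals that all included 0. The ITIH1 call was lost among replicate numbers 1 and 2 alone (1.05, adjusted p = 0.206) and among numbers 3 to 5 alone (2.08, adjusted p = 0.0756).

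Within groups of liver, most members rose and fell together from pig to pig. With group means removed, Pearson's r over the 20 liver arrays was 0.90 to 0.96 among ALB, TF, HP and HPX. A2M correlated with these at 0.79 to 0.86 and ITIH1 at 0.79 to 0.83. TF/PICA was the exception, at 0.03 with A2M and no more than 0.44 with any member. The points share array and scaling: the same residuals correlated with the log2 intensity above which the brightest 0.5% of probe sets of the array lie, at 0.65 for ALB, 0.79 for TF, 0.83 for HP, 0.84 for HPX, 0.76 for A2M, 0.59 for ITIH1 and 0.56 for TF/PICA.

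In fat the correlations were lower and less even. Over 19 arrays, without low RFI restricted replicate 5, ALB correlated with HP at 0.77, with HPX at 0.72 and with TF at 0.55. Without high RFI restricted replicate 3 as well, these were 0.75, 0.48 and 0.29 over 18 arrays. A2M and ITIH1 correlated with the rest at -0.28 to 0.06, and with each other at -0.12. With the lower bound of the brightest 0.5% of probe sets ITIH1 correlated at -0.48, and the other members at -0.17 to 0.13.

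**Figure D5:**
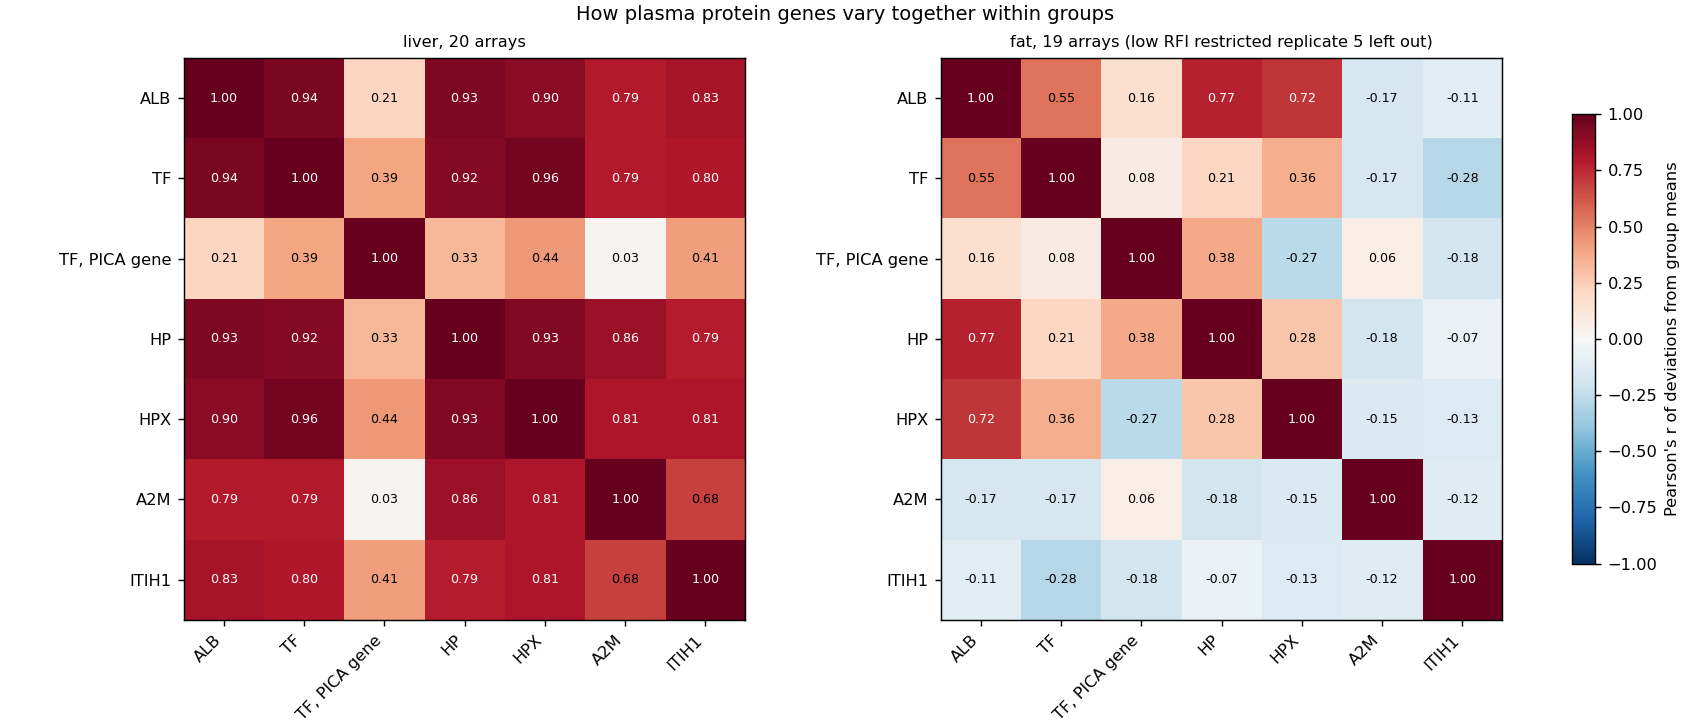
Pearson's r between log2 values with group means removed, over 20 liver arrays (left) and 19 fat arrays (right), for 7 probe sets; colour and number give r. In liver ALB, TF, HP and HPX are related at 0.90 to 0.96, whereas in fat A2M and ITIH1 lie between -0.28 and 0.06 with the other genes.

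The genes with the most similar liver profiles were sought among 5722 named genes. For ALB these were APOC3 (r = 0.97), APOE (0.96) and VTN, vitronectin (0.95). TF was closest to C3, the central complement protein (0.97), APOC3 (0.97) and HPX (0.96), and HPX to GC, the vitamin D carrier (0.97), TF (0.96) and C3 (0.96). HP was closest to C3 (0.95), APOH (0.94) and ALB (0.93). A2M was closest to PLG, plasminogen (0.95), C1R (0.93) and CFB (0.90), and ITIH1 to VTN (0.87), SERPIND1 (0.86) and APOC3 (0.86). TF/PICA had other partners, namely KLKB1, plasma prekallikrein (0.91), LRRC43 (0.91) and DHDH (0.91). These are correlations over 20 arrays that share the scaling described above.

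In fat the same was done over 19 arrays and 5551 named genes. HP was closest to DBNL (0.94), EIF3B (0.93) and DCTN1 (0.93), and ALB to WDR18 (0.86), VPS52 (0.83) and VTN (0.82). A2M was closest to NOB1 (0.76), ALKBH6 (0.75) and SCCPDH (0.73). ITIH1 was closest to MSH5 (0.86), CLPTM1 (0.79) and USP18 (0.78), but r with MSH5 fell to 0.49 without the 2 arrays farthest from the median. HPX was closest to AGMAT (0.80), IER5 (0.73) and ALB (0.72), TF to LOC100302368 (0.79), ASB8 (0.78) and CEBPG (0.76), and TF/PICA to PEX19 (0.84), SCPEP1 (0.79) and LOC100522498 (0.77). Without the 2 farthest arrays the HPX values were 0.54, 0.38 and 0.33, and TF with CEBPG 0.56. Those of HP stayed at 0.92 to 0.94. Only group means were removed, so the lower HP signal of replicate numbers 1 and 2 remained in these correlations. Its part in them was not tested. Over 18 arrays, with high RFI restricted replicate 3 left out too, ALB, TF and HPX had other closest genes, led by STX10, TARBP2 and IFT57. TF/PICA kept its 3, while HP, A2M and ITIH1 kept some of theirs.

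Of 26 other acute phase genes listed, 18 were on the array and 7 were tested in fat. On restriction 2 were higher, 1 was lower and 4 did not pass (limma, adjusted p under 0.05), where 15.1% of all probe sets were higher and 10.7% lower, with a list median of 0.74 (0.38 without low RFI restricted replicate 5) against 0.08 over all probe sets. ITIH3, another heavy chain of the family and a neighbour of ITIH1 in Sscrofa11.1, ranged from 761 to 1481 in high RFI ad libitum fat and from 705 to 3518 in high RFI restricted fat. In low RFI pigs it ranged from 973 to 2141 ad libitum and from 1936 to 5770 restricted. It was higher by 0.87 (SE 0.261, adjusted p = 0.0184), and by 0.88 without that array (adjusted p = 0.0260). LRG1, a leucine-rich glycoprotein of inflammation, was higher by 1.02 (SE 0.238, adjusted p = 0.00363), and by 0.98 without that array.

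PGLYRP2, an amidase that cuts bacterial peptidoglycan, was the 1 lower gene and the largest change of the list. It ranged from 503 to 2398 in high RFI ad libitum and 699 to 1924 in low RFI ad libitum fat, but from 109 to 224 and 126 to 247 in the restricted groups. The diets did not overlap, and it fell by 2.70 on the log2 scale (SE 0.255, adjusted p = 8.23e-07, limma), and by 2.72 without low RFI restricted replicate 5. ITIH4 (0.74, adjusted p = 0.201), SAA2 (0.36), ORM1 (0.34) and MT1A (0.94) did not pass.

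Among 32 other plasma proteins made by liver, 24 were on the array and 7 tested in fat, with 2 higher and 1 lower, beside 15.1% and 10.7% of all probe sets. The list median was 0.62, and 0.10 without low RFI restricted replicate 5. APOA1, the main protein of high-density lipoprotein, ranged from 2752 to 4243 in high RFI ad libitum and 6380 to 7576 in high RFI restricted fat. In low RFI pigs it ranged from 4206 to 4637 ad libitum and 4331 to 11815 restricted, so the diets overlapped there. It was higher by 0.82 (SE 0.123, adjusted p = 7.95e-05, limma), and by 0.74 without that array (adjusted p = 5.73e-05). RBP4, the retinol carrier that fat also secretes, was higher by 0.82 (SE 0.219, adjusted p = 0.00934), or 0.72 without it (adjusted p = 0.0190). PROS1, the anticoagulant protein S, fell by 0.25 (adjusted p = 0.0088), or by 0.26 without it.

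Of 21 regulators of the acute phase, 17 were on the array and 11 tested in fat, with 2 higher and 0 lower, where 15.1% of all probe sets were higher and 10.7% lower. The list median was 0.13. NFKBIA, the inhibitor that holds NF-kappa B in the cytoplasm, was higher by 0.74 (SE 0.142, adjusted p = 0.00079, limma). NR3C1, the glucocorticoid receptor, was higher by 0.39 (adjusted p = 0.0121). Both kept their calls without low RFI restricted replicate 5 (0.74 and 0.43). JAK2, a kinase of cytokine receptors, missed the threshold with all arrays and passed it without that array (0.42, adjusted p = 0.0226). The interleukin-6 effectors STAT3 (0.13), CEBPB (-0.05) and CEBPD (0.38, adjusted p = 0.170) did not pass.

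Of 20 receptors and handling genes for the members' ligands, 14 were on the array and 11 tested in fat, with 2 higher and 4 lower, beside 15.1% and 10.7% of all probe sets. The list median was 0.11, and -0.01 without low RFI restricted replicate 5. STEAP4, a metalloreductase, was higher by 0.83 (SE 0.194, adjusted p = 0.00356, limma) and ACO1, the iron-sensing aconitase, by 0.32 (adjusted p = 0.0109). BLVRA, which reduces biliverdin from haem, fell by 0.65 (SE 0.121, adjusted p = 0.000604), and IREB2, a partner of ACO1 in iron sensing, fell by 0.49 (adjusted p = 0.00319). FCGRT, the receptor that spares albumin from breakdown, fell by 0.33 (adjusted p = 0.00841), and NCOA4, the ferritin autophagy receptor, fell by 0.26 (adjusted p = 0.0196). These 6 kept their calls without that array, with the least margin for NCOA4 (-0.24, adjusted p = 0.0393). The haptoglobin receptor CD163 (0.11) and HMOX1, which opens the haem ring (0.16), did not pass.

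In liver 1 gene of the same lists passed the test. The acute phase list had 0 of 18 called, the other plasma proteins 0 of 23 and the regulators 0 of 14 (limma; 0.919% of all probe sets were called). Of 13 receptors and handling genes 1 was higher, ACO1, by 0.34 (SE 0.0677, adjusted p = 0.0190). HAMP, the iron hormone hepcidin (0.96, adjusted p = 0.224), TFRC, the transferrin receptor (0.71, adjusted p = 0.462), and SERPINA6, which carries cortisol (-1.29, adjusted p = 0.0503), did not pass. PGLYRP2, which fell in fat, was 0.39 in liver (adjusted p = 0.0973).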

How the data were processed

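Gene expression was measured in 20 liver and 20 fat samples, 1 array each, on an Affymetrix porcine array. The deposited values are linear intensities; affy and MAS5 are named in the submitters' processing notes, with no version, and each array has a trimmed mean near 500. Intensities were converted here to log2 with no offset, and the 124 control probe sets of 24123 were left out. Probe sets were named from the platform annotation: 10069 have 1 symbol, 198 several and 13732 none.

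To be tested in a tissue, a probe set had to be brighter than 40% of the probe sets of the same array on 5 or more of the 20 arrays. That left 15498 probe sets in fat and 15677 in liver, and 14001 for comparisons between tissues. Group means were fitted per tissue with limma 3.58.1 in R 4.3.3 and eBayes, whose prior followed mean intensity. Benjamini-Hochberg adjustment covered every probe set tested, and calls are at an adjusted p under 0.05. Labels do not link the liver and fat arrays of a pig, and the tissue comparison treats them as separate samples, although most of those with the same group and number have correlated residuals. Each pig gave 1 array per tissue, and 5 arrays per group limit the precision. The fitting was tested on simulated data. Figures were drawn with matplotlib 3.10.9 in Python 3.11.15.

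Named were all probe sets of the 6 symbols; from each gene list, tissue and contrast up to 4 called genes per direction by p; the 3 genes most correlated with each member after group means were removed; and a set of acute phase regulators and receptors where measured (IL6R, SOCS3 and LRP1 were not tested in either tissue). A gene was represented by its brightest probe set. The members and the lists were chosen with earlier results of these data known. Alternatives were an offset, quantile normalization, dropping or tightening the filter, no intensity trend, a replicate block, replicate numbers 1 and 2 or 3 to 5 alone, and leaving out each array; those without both fat arrays with hepatocyte signal, and with the block but without the strongest of them, were chosen after seeing the data. RefSeq names and neighbours are from Sscrofa11.1.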

Additional observations from a re-analysis of the deposited data

Results flagged for a closer look

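Among groups of 5 arrays, 9 of 80 had a highest or lowest array far from the rest by Dixon's criterion, where chance gives about 1 in 20, or 4. In fat, low RFI restricted replicate 5 was the highest of its group for TF/PICA at 507 and for HPX at 3486, high RFI restricted replicate 3 was the highest for TF at 1347, high RFI ad libitum replicate 5 was the lowest for ITIH1 at 9.38, and low RFI restricted replicate 4 was the lowest for the third A2M set at 14.8. In liver, high RFI ad libitum replicate 3 was the lowest for TF/PICA at 12199 and for the second A2M set at 4318, low RFI restricted replicate 5 was the lowest for TF/PICA at 10129, and low RFI restricted replicate 4 was the highest for HP at 50817. The diet response of ITIH1 differed between tissues, fat minus liver, by 1.67 on the log2 scale (adjusted p = 0.0162, limma).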

How the results depend on the processing

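Of 1051 alternatives to 30 single values, 997 kept direction and side of the threshold, 14 lost the call, 10 gained it and 30 turned the sign; of 390 alternatives to 12 counts, 368 stayed within 1.5 times. The cause of a change was not tested. The count called for diet in fat was 1 with quantile normalization, 0 for numbers 1 and 2 and 1 with the replicate block without low RFI restricted replicate 5, and 1 to 3 with 1 array left out. Within a line in fat it was 1 with the stricter filter, the offset and numbers 3 to 5, and 0 to 1 with 1 array left out. For liver against fat it was 3 with the stricter filter and 7 with any array left out. For fat against liver it was 2 with the replicate block, 0 for numbers 3 to 5 and 1 to 2 with 1 array left out. Signs turned in fat for TF/PICA (-0.067 with quantile normalization, -0.15 for numbers 1 and 2, -0.20 without both arrays, -0.14 with the block without low RFI restricted replicate 5, lowest -0.19 with 1 array left out, highest 0.17), ALB (-0.13 for numbers 1 and 2), HPX (-0.67 for numbers 1 and 2, -0.27 without both, -0.11 with that block, -0.10 to 0.58 with 1 array left out) and A2M in low RFI pigs (-0.063 for numbers 1 and 2). In liver they turned with quantile normalization for HP (-0.00197), A2M (-0.00799) and ITIH1 (-0.00917), for numbers 1 and 2 for A2M (-0.053), the second A2M set (-0.61), the third A2M set (-0.26) and ITIH1 (-0.014), and with 1 array left out for the second A2M set (-0.13 to 0.21) and the third A2M set (-0.021 to 0.11). With the replicate block ITIH1 in fat (1.75) and A2M in fat (1.14) kept their calls, but with that array left out as well A2M did not (0.78, adjusted p = 0.0526). With the block the fat minus liver difference of A2M passed (1.06, adjusted p = 0.0420, limma). Residuals of same-numbered arrays correlated over 0.1 in 23 of 30 pairs in fat (median 0.20) and 26 of 30 in liver (median 0.18), against medians of -0.05 and -0.08 for different numbers. As not every pair was over 0.1, the numbers were not taken as pairing. A hint from the data, not the design, is that 12 of 20 fat and 13 of 20 liver arrays were closest to their own number. The block moved the count of all probe sets called for diet in fat from 3999 to 5011, in liver from 144 to 328.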
